A study of Mus musculus with 17 samples.

Results

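In all, 8 genes that encode inflammatory cytokines or their antagonists were followed through 3 subsets of synovial macrophages, at rest and 8 h after an intravenous dose of immune complexes (IC). They were chosen by name as the rows Tnf, Il1a, Il1b, Il1rn, Il6, Il10, Il18 and Osm of the table of counts per gene, and make up 8 of its 22859 genes. The table holds bulk RNA-seq of macrophages sorted from collagenase-digested synovium, the membrane that lines the joint cavity, of adult mice that are all labelled Fcgr2b-KO, controls included. Its product is the Fc receptor that inhibits responses to IgG, and the controls carry the same label as the IC mice. According to the study's methods the IC were ovalbumin bound by rabbit antibodies, and the subsets were sorted as LYVE1+CX3CR1+, MHCII+CD11c- and MHCII+CD11c+ cells, labelled Lyve1, IAIE and CD11c. Each subset has 3 control and 3 IC libraries, except MHCII+CD11c+, which has 2 IC libraries.

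Cytokines of this group are secreted by macrophages after Fc receptors or pattern recognition receptors are engaged, and they act on receptors of the same and of neighbouring cells. TNF and the IL-1 family members IL-1α, IL-1β and IL-18 start inflammation, and IL-1β and IL-18 are made as precursors that caspase-1 cleaves in the inflammasome. IL-6 and oncostatin M (Osm) signal through receptors that share the gp130 subunit (Il6st). The other side is formed by IL-1 receptor antagonist (Il1rn), which occupies the IL-1 receptor without signalling, by IL-10, which dampens macrophage activation, and by the IL-18 binding protein (Il18bp), a soluble trap for IL-18. In joints TNF, IL-1 and IL-6 are known as drivers of arthritis, and IL-1β as a mediator that can sensitise pain-sensing neurons.

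All 8 genes passed the filter on low counts, in a test of 15272 genes. Libraries held between 2301913 and 7248939 counts, and a floor of 3 counts corresponded to between 0.414 and 1.30 CPM (counts relative to the library total) before scaling. Levels below are CPM after TMM scaling unless TPM, which also divide by transcript length, are named. Macrophage markers were present in every library, with 8 of 8 genes detected in each group. Their summed level was lower in MHCII+CD11c+ libraries (2844 to 5844 CPM) than in those of the other subsets (8392 to 13066 CPM), without overlap. The markers of the MHCII side summed to 66.4 to 674 CPM in LYVE1+CX3CR1+ libraries against 12169 to 35887 CPM in the others. Fcgr2b, the gene named in the genotype, had reads in all 17 libraries (69.3 to 248 CPM), and a count per gene does not tell from which exons.

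The genes lie on 6 chromosomes of the GRCm38 build. Il1a (chr2:129299610-129309972, minus strand) and Il1b (chr2:129364570-129371139, minus strand) are neighbours, and Il1rn (chr2:24336853-24351494, plus strand) is on the same chromosome. Tnf (chr17:35199381-35202007, minus strand), Il6 (chr5:30013114-30019981, plus strand), Il10 (chr1:131019845-131024974, plus strand), Il18 (chr9:50554827-50581840, plus strand) and Osm (chr11:4236420-4241026, plus strand) stand alone. Il1b overlaps the antisense RNA Il1bos, Il1a the transcript Gm14023, and Il18 the genes Bco2 and Tex12. Whether the counting used strand is not given in the sources used here, so reads of these partners cannot be told apart. Il1bos itself held 0 to 38 counts per library.

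Promoters were found in RefSeq (GRCm38.p6) for 6 of the 8 genes. The 250 bases before the start of Il6 and Il1b are shown because these transcripts differed most between subsets, and those of Tnf because it was abundant in each group. Capitals mark matches, on either strand, to the NF-kappaB consensus, to the AP-1 letters TGANTCA, to the C/EBP letters TTGCNNAA or to the TATA box letters TATAAA.
Il6 (chr5:30012864-30013113, plus strand): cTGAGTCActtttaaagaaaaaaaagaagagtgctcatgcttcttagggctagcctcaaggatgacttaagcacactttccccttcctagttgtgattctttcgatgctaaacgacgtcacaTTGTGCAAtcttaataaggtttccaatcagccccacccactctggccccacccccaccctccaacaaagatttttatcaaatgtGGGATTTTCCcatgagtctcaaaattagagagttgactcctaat
Il1b (chr2:129371140-129371389, minus strand): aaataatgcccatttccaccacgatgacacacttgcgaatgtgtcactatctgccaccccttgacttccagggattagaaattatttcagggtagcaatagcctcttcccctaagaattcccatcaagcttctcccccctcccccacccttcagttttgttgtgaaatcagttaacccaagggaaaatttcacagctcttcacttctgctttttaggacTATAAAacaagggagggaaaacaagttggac
Tnf (chr17:35202008-35202257, minus strand): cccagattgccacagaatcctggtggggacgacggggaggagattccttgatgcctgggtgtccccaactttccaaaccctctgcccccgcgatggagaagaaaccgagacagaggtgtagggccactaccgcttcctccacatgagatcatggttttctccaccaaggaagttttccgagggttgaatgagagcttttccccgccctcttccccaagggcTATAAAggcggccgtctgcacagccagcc
In the Il6 window a kappaB match (GGGATTTTCC, 44 to 35 bases before the start), an AP-1 match (TGAGTCA, 249 to 243 bases before it) and a C/EBP match (TTGTGCAA, 128 to 121 bases before it) were found. No match to these 3 patterns was found in the Il1b and Tnf windows, and each holds a TATA box match, 31 to 26 and 29 to 24 bases before the start. Among 32851 RefSeq promoters of the same length, 3.90% hold the kappaB pattern, 6.75% the AP-1 letters, 9.56% the C/EBP letters and 12.4% the TATA letters. In 1 of the 3 Il1rn promoters the AP-1 letters were present (TGAGTCA, 141 to 135 bases before the start), and Il1a held an AP-1 match 12 to 6 bases and a TATA match 32 to 27 bases before its start.

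At the other end of the transcripts the members differ in AU-rich letters, at which mRNA-decay proteins of the tristetraprolin family (Zfp36) bind. The letters TATTTAT occurred 8 times in the 3' end beyond the coding part of Tnf, 4 times in Il10, 3 times each in Il1a, Il1b and Osm and 1 time in Il6. They occurred 0 times in Il1rn and Il18. Of 14830 mouse genes, 28.8% hold 1 copy or more and 3.86% hold 3 or more.

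Tnf was among the most abundant transcripts of every group. In controls it measured 493 ± 53.7 TPM (mean ± SD, n = 3) in LYVE1+CX3CR1+, 325 ± 114 TPM in MHCII+CD11c- and 321 ± 42.6 TPM in MHCII+CD11c+ macrophages, above 98.2% to 98.9% of genes in all 6 groups. Il1b spanned the widest range, from 58.1 ± 55.7 TPM in LYVE1+CX3CR1+ through 343 ± 224 TPM in MHCII+CD11c- to 1091 ± 109 TPM in MHCII+CD11c+ controls. The top transcript of the 8 was thus Tnf in the LYVE1+CX3CR1+ controls and Il1b in the MHCII+CD11c+ controls. In MHCII+CD11c- controls both had similar means, with spreads that overlapped.

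**Figure D1:**
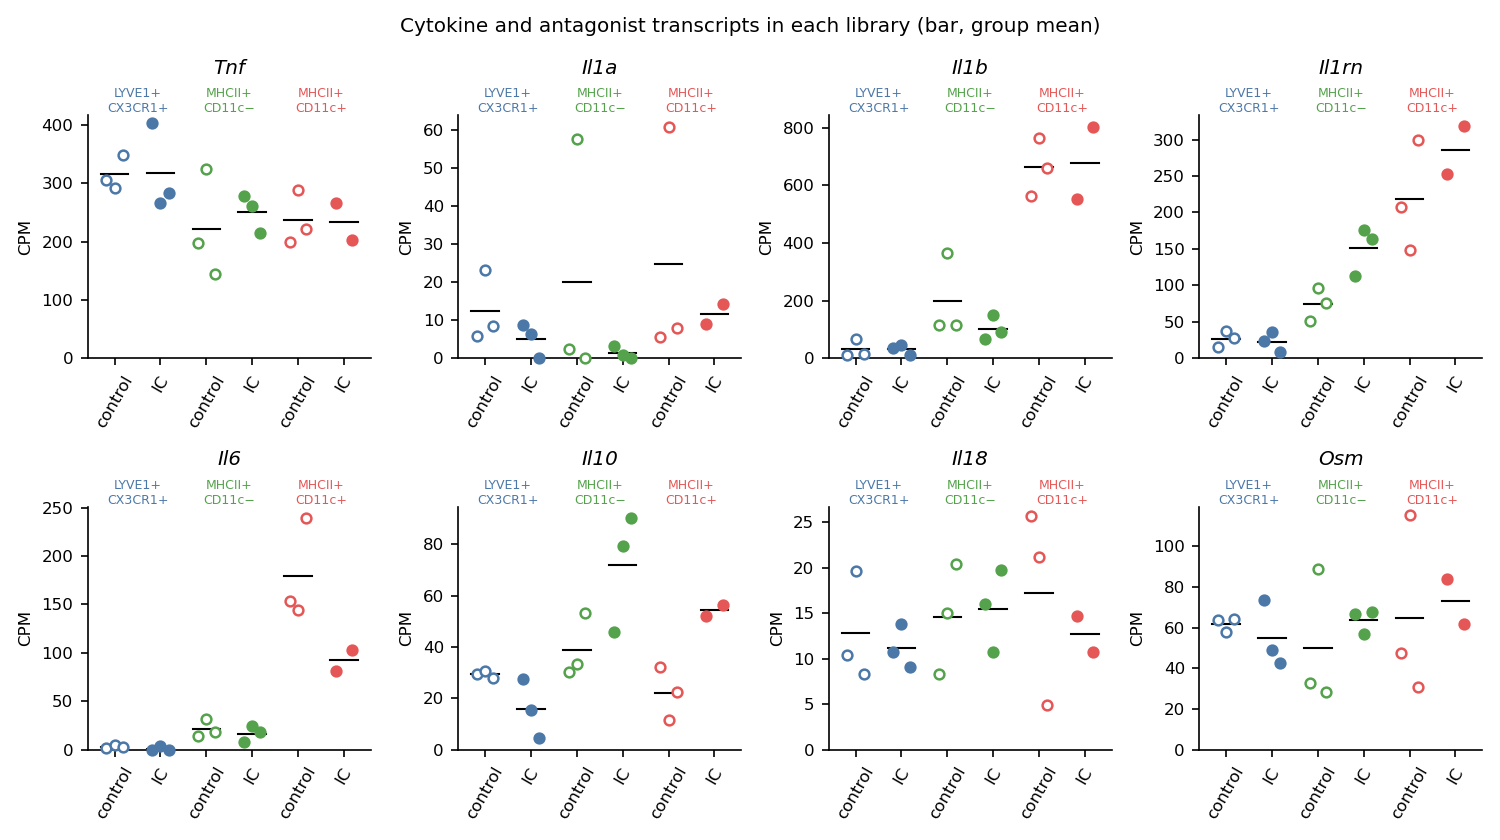
Level of each of the 8 transcripts in CPM (linear axis from 0) in each library, by subset and treatment, with open points for control, filled points for IC and a bar at the group mean. Il1b, Il1rn and Il6 step up from LYVE1+CX3CR1+ to MHCII+CD11c+ macrophages, Tnf stays between 144 and 404 CPM, and Il1a reaches its 3 highest values in the control libraries numbered 2.

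The first question was whether the subsets differ at rest. Il6, Il1b and Il1rn formed a gradient among controls that was lowest in LYVE1+CX3CR1+ and highest in MHCII+CD11c+ macrophages, whereas Tnf, Il1a, Il10, Il18 and Osm did not pass the test in any pair of subsets. With edgeR's quasi-likelihood test and Benjamini-Hochberg adjustment over all 15272 genes, 3 of the 8 genes passed for MHCII+CD11c+ against LYVE1+CX3CR1+ controls, where 15.2% of all genes did. Between MHCII+CD11c+ and MHCII+CD11c- controls 2 of 8 passed (8.66% of all genes), and between LYVE1+CX3CR1+ and MHCII+CD11c- controls 1 of 8 (1.56% of all genes). These comparisons share control libraries. Whether controls of the same number come from the same mice is not given, and the fit treats them as independent. The median log2 fold change of the members was −0.74 for LYVE1+CX3CR1+ over MHCII+CD11c+ controls, against 0.05 over all genes. It was 0.33 for MHCII+CD11c+ over MHCII+CD11c- controls (−0.03 over all genes). For LYVE1+CX3CR1+ over MHCII+CD11c- controls it was −0.56 (−0.00 over all genes). In sorted bulk samples a lower share of expressing cells and less RNA per cell cannot be told apart.

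Il6 showed the steepest gradient. Its control levels were 1.89, 4.86 and 2.79 CPM in LYVE1+CX3CR1+ (12 to 20 counts), 13.9, 31.5 and 18.1 CPM in MHCII+CD11c-, and 154, 144 and 239 CPM in MHCII+CD11c+ macrophages. No library of one subset overlapped with those of another. For Il6, and for Il1b and Il1rn below, the share of all genes that separate in this way was not counted. The log2 fold change was −5.86 ± 0.69 (± SE; adjusted p = 2.96e-05) between LYVE1+CX3CR1+ and MHCII+CD11c+ and 3.07 ± 0.58 (adjusted p = 0.00358) between MHCII+CD11c+ and MHCII+CD11c-. Both calls held in all 19 alternative fits. The step from MHCII+CD11c- down to LYVE1+CX3CR1+ (−2.79 ± 0.64, adjusted p = 0.0432) was less stable, since it passed in 10 of 19 alternatives. Its adjusted p rose to at most 0.244, the value without the first LYVE1+CX3CR1+ control, and the call was lost when any 1 of the 6 control libraries was left out.

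Il1b, the gene of the main secreted IL-1, followed the same order. The control libraries of LYVE1+CX3CR1+ macrophages held 12.4, 66.8 and 14.7 CPM, those of MHCII+CD11c- 115, 365 and 114 CPM, and those of MHCII+CD11c+ 564, 763 and 660 CPM. Again the 3 ranges did not overlap. Only the difference between the outer subsets passed (−4.44 ± 0.80, adjusted p = 0.00237, and at most 0.0145 over 19 alternatives). The 2 single steps, −2.70 ± 0.74 and 1.74 ± 0.70, had adjusted p of 0.132 and 0.174. The second control library held the highest level in each subset. Without these 3 libraries, a choice made after seeing the data, both steps passed (−3.11 ± 0.52, adjusted p = 0.00706, and 2.43 ± 0.48, adjusted p = 0.00697). Leaving out the highest Il1b values narrows the spread of the tested gene, so these p-values add no independent support.

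Il1rn, the antagonist of IL-1, rose along the same gradient as its agonist. Controls of LYVE1+CX3CR1+ macrophages held 15.4, 37.3 and 28.0 CPM, those of MHCII+CD11c- 51.0, 96.1 and 76.2 CPM, and those of MHCII+CD11c+ 207, 148 and 299 CPM, with no overlap between subsets. The difference between the outer subsets was −3.02 ± 0.46 (adjusted p = 3.18e-04, at most 0.00316 over 19 alternatives). The step from MHCII+CD11c- to MHCII+CD11c+ was 1.55 ± 0.43 (adjusted p = 0.0394) and passed in 13 of 19 alternatives. It did not pass without the libraries numbered 1 or 3 of either group, with an adjusted p of up to 0.140. The lower step, −1.48 ± 0.44, had an adjusted p of 0.154.

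**Figure D2:**
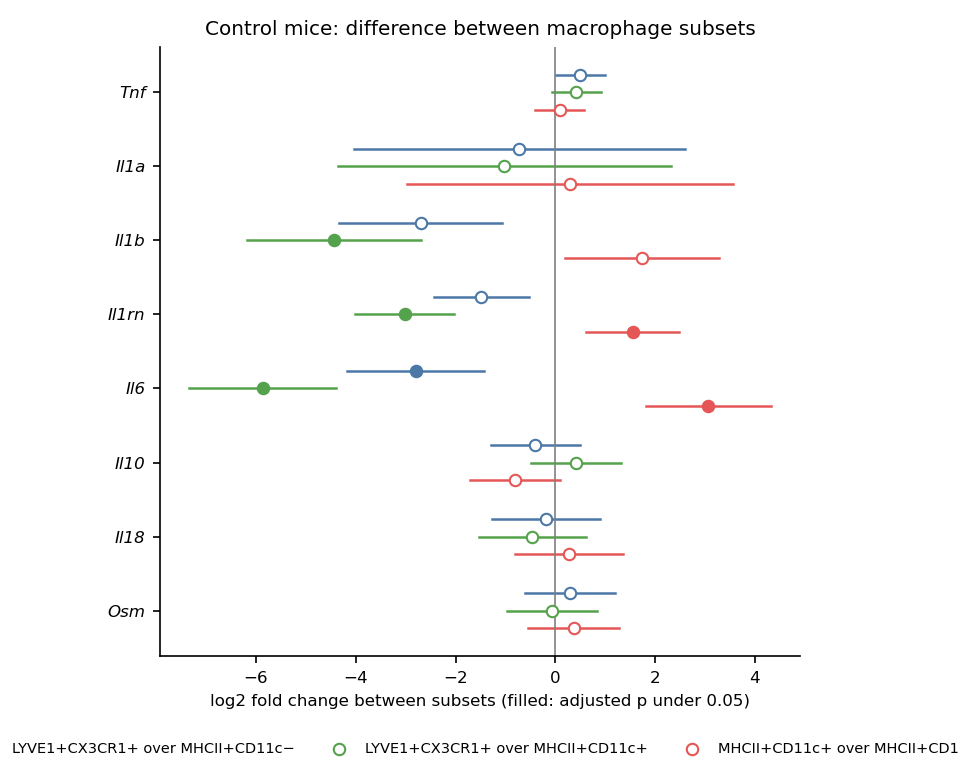
Log2 fold change of each transcript between subsets of control mice, with the 95% interval of the fit, for the 3 pairs of subsets. Filled points passed at an adjusted p under 0.05: Il6 in all 3 pairs, Il1rn in 2 and Il1b in 1, while the intervals of Tnf lie between −0.40 and 0.99.

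For the other 5 genes the spread within groups was of the size of the differences. Tnf gave 0.50 ± 0.24 log2 units for LYVE1+CX3CR1+ over MHCII+CD11c- controls (adjusted p = 0.458). Its libraries measured 305, 292 and 349 CPM against 197, 325 and 144 CPM. Without the second control libraries the same difference was 0.90 ± 0.23 with an adjusted p of 0.0348, a choice made after seeing the data. The LYVE1+CX3CR1+ controls also lay above those of MHCII+CD11c+ macrophages (199, 288 and 222 CPM), at 0.42 ± 0.24 (adjusted p = 0.281). Osm ranged from 28.4 to 115 CPM, Il10 from 11.5 to 53.2 CPM and Il18 from 4.92 to 25.7 CPM over the 9 control libraries. Their groups overlapped in each pair of subsets.

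Il1a was the least even gene within groups. The second control library held 23.2 CPM in LYVE1+CX3CR1+, 57.6 CPM in MHCII+CD11c- and 60.9 CPM in MHCII+CD11c+ macrophages (86, 326 and 328 counts), against 0 to 8.37 CPM in the other 6 controls. In each subset this library was therefore far above the other controls. In these libraries Il1b was highest too, and in both MHCII+ subsets so were Tnf (325 and 288 CPM) and Osm (88.9 and 115 CPM). Il1rn, Il6 and Il10 did not share this in MHCII+CD11c+ macrophages, where the second library was the lowest of 3. Il1a contrasts therefore turned on these libraries: the fitted LYVE1+CX3CR1+ over MHCII+CD11c- difference of controls went from −0.72 ± 1.52 to 2.32 ± 1.47 without them, and neither passed.

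Markers of other cell types that make IL-1β and IL-6 varied between the subsets. Of 11 neutrophil markers in the table, the summed level was 37.8 to 91.5 CPM in LYVE1+CX3CR1+, 221 to 613 CPM in MHCII+CD11c- and 113 to 633 CPM in MHCII+CD11c+ controls, with 3, 0 and 0 markers at 0 counts. The 6 dendritic cell markers summed to 19.5 to 23.3, 91.4 to 225 and 218 to 576 CPM, with 1, 0 and 0 markers at 0. In each subset the second control, with the highest Il1a and Il1b, had the lowest neutrophil sum (37.8, 221 and 113 CPM). It was also the lowest in dendritic cell markers (19.5, 91.4 and 218 CPM) and monocyte markers (465, 343 and 589 CPM). Its LYVE1-side markers were the highest control sum in MHCII+CD11c- (2063 CPM) and MHCII+CD11c+ (750 CPM) and the lowest in LYVE1+CX3CR1+ macrophages (3999 CPM). The second controls thus differed in several marker sums at once. After IC the neutrophil sum of MHCII+CD11c+ macrophages was 32.2 and 33.5 CPM, and Il1b measured 551 and 804 CPM. The 9 fibroblast markers summed to 10.6 to 227 CPM over the 17 libraries. The 6 monocyte markers summed to 465 to 722 CPM in LYVE1+CX3CR1+, 343 to 545 CPM in MHCII+CD11c- and 589 to 1188 CPM in MHCII+CD11c+ controls. The part of neutrophils, monocytes and dendritic cells in the Il6, Il1b and Il1rn gradient was not tested.

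The second question was whether circulating IC changed these transcripts within 8 h. None of the 8 genes passed the edgeR test in any subset, nor by DESeq2 or by limma voom with quality weights. In LYVE1+CX3CR1+ macrophages 0 of 8 were called, where 0.963% of all genes were, and 0 had an unadjusted p under 0.05. In MHCII+CD11c- macrophages 0 of 8 were called (0.701% of all genes) and 2 had an unadjusted p under 0.05, Il10 and Il1rn. In MHCII+CD11c+ macrophages 0 of 8 were called (0.216% of all genes), with Il10 alone under an unadjusted 0.05. For the mean response over the 3 subsets 0 of 8 were called (3.35% of all genes), and Il6 had an unadjusted p of 0.0497. The median log2 fold change of the members was −0.19, 0.13 and 0.01 in the 3 subsets, against −0.14, −0.03 and 0.01 over all genes.

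**Figure D3:**
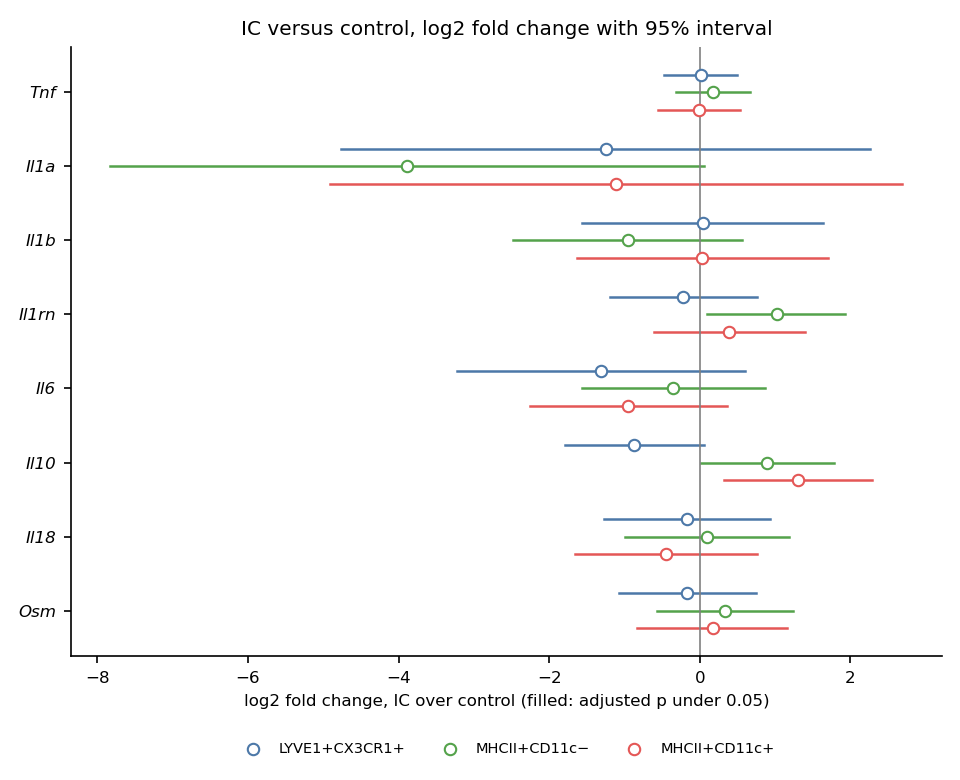
Log2 fold change of IC over control for each transcript in each subset, with the 95% interval of the fit. All points are open, since none passed at an adjusted p under 0.05. Tnf has the narrowest intervals, within −0.55 and 0.66, Il1a the widest, and those of Il10 lie mostly below 0 in LYVE1+CX3CR1+ and above 0 in both MHCII+ subsets.

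Tnf gave the tightest bound. Its IC libraries measured 404, 266 and 283 CPM in LYVE1+CX3CR1+, 278, 262 and 214 CPM in MHCII+CD11c-, and 267 and 202 CPM in MHCII+CD11c+ macrophages, all within reach of the controls. The log2 fold changes were 0.01, 0.18 and −0.01, with 95% intervals of −0.48 to 0.50, −0.31 to 0.66 and −0.55 to 0.53. A change of Tnf by 1 log2 unit lay outside each of these intervals. The 16 immediate early genes that tissue digestion is known to induce summed to 13466 to 22712 CPM over the libraries, and their part in the Tnf level was not tested. Osm was similar, at −0.17, 0.33 and 0.17, with intervals between −1.07 and 1.24. Without the second control libraries Osm was 0.60 ± 0.17 higher after IC in the mean over subsets (adjusted p = 0.0452), against 0.11 ± 0.26 with them. This choice was made after seeing the data, and these libraries held the highest control Osm in both MHCII+ subsets (88.9 and 115 CPM). Leaving them out thus raises the fold change there.

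Of the IL-1 genes, Il1b after IC measured 35.7, 45.6 and 11.6 CPM in LYVE1+CX3CR1+, 65.2, 151 and 89.7 CPM in MHCII+CD11c-, and 551 and 804 CPM in MHCII+CD11c+ macrophages. The order of the subsets was that of the controls. Fold changes were 0.04 ± 0.73, −0.96 ± 0.69 and 0.03 ± 0.76, with intervals that reach from −2.48 to 1.70. Without the control libraries numbered 2 they were 1.29 ± 0.48, −0.17 ± 0.42 and 0.14 ± 0.45 (adjusted p = 0.349, 0.951 and 0.989). With all libraries, changes of Il1b by 1 log2 unit lay inside the intervals, except a higher level in MHCII+CD11c- macrophages, whose interval ended at 0.56. Il1a after IC fell between 0 and 14.3 CPM, and its fold changes of −1.25 ± 1.61, −3.89 ± 1.80 and −1.11 ± 1.74 rested on the second control libraries. Without them they were −0.40, −0.04 and 0.78, and none passed.

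Il1rn in MHCII+CD11c- macrophages was one of the transcripts whose IC and control libraries did not overlap, a pattern not counted over all genes. It measured 113, 176 and 164 CPM after IC against 51.0, 96.1 and 76.2 CPM in controls (1.02 ± 0.43, unadjusted p = 0.0326, adjusted p = 0.433). In the other subsets Il1rn overlapped, at 7.88 to 36.2 CPM in LYVE1+CX3CR1+ and 253 and 318 CPM in MHCII+CD11c+ macrophages. Their fold changes were −0.22 ± 0.45 and 0.39 ± 0.47.

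Il6 in MHCII+CD11c+ macrophages measured 81.8 and 103 CPM after IC against 154, 144 and 239 CPM, without overlap (−0.95 ± 0.61, 95% interval −2.26 to 0.36, not called). In LYVE1+CX3CR1+ macrophages it was listed with 0, 11 and 0 counts after IC against 12, 18 and 20 in controls (−1.31 ± 0.89, adjusted p = 0.567). In CPM these were 0, 3.46 and 0 against 1.89, 4.86 and 2.79. The IC libraries were shallower, at 2301913 to 3348248 total counts against 3669763 to 7248939 in the controls of this subset. The MHCII+CD11c- libraries overlapped at 7.54, 24.5 and 17.9 CPM (−0.35 ± 0.57). The mean over subsets was −0.87 ± 0.41 (unadjusted p = 0.0497, adjusted p = 0.281).

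Il10 was the member whose libraries separated in opposite directions in different subsets, although no single contrast passed. After IC it measured 27.5, 15.4 and 4.56 CPM in LYVE1+CX3CR1+ macrophages, all below the controls of 29.5, 30.8 and 27.9 CPM. The lowest of these came from the shallowest library, with 11 counts, and the highest (27.5 CPM) lay close to the lowest control (27.9 CPM). In MHCII+CD11c+ macrophages it measured 52.0 and 56.4 CPM, above the controls of 32.3, 11.5 and 22.3 CPM. In MHCII+CD11c- macrophages the values were 45.9, 79.3 and 90.3 CPM against 30.1, 33.2 and 53.2 CPM, with overlap of 1 library on each side. Fold changes were −0.87 ± 0.44, 1.30 ± 0.47 and 0.89 ± 0.43, with unadjusted p of 0.0637, 0.0118 and 0.0488 and adjusted p of 0.392, 0.719 and 0.495. For Il10 and the other members whose libraries did not overlap, the share of all genes that separate in the same way was not counted.

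The difference of the IC response between subsets was tested as an interaction. None of the 8 genes passed, by edgeR, DESeq2 or voom. Of all genes, 0.0327% were called for the LYVE1+CX3CR1+ against the MHCII+CD11c+ response, 0.0262% for LYVE1+CX3CR1+ against MHCII+CD11c-, and 0% for both MHCII+ subsets. The largest member difference relative to its error was that of Il10, at −2.17 ± 0.65 log2 units between LYVE1+CX3CR1+ and MHCII+CD11c+ (unadjusted p = 0.00306, adjusted p = 0.301) and −1.76 ± 0.62 between LYVE1+CX3CR1+ and MHCII+CD11c- (unadjusted p = 0.00934, adjusted p = 0.508). Il10 kept these signs in all alternatives and in all fits without 1 library. Apart from Il10, 0 members had an unadjusted p under 0.05 in any of the 3 interactions.

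Some of these calls changed with surrogate variables in the fit. The study's methods name the sva package for batch effects without saying which of its functions was used, and here 5 surrogate variables were estimated with it. Il10 then passed in MHCII+CD11c- macrophages (1.23 ± 0.30, adjusted p = 0.0452) and in both interactions with LYVE1+CX3CR1+ macrophages (−2.07 ± 0.43 and −2.27 ± 0.48, adjusted p = 0.0302 and 0.0313). Il1a passed as lower in LYVE1+CX3CR1+ (−1.95 ± 0.54, adjusted p = 0.0311) and MHCII+CD11c- macrophages (−3.33 ± 0.64, adjusted p = 0.0107). Il6 passed as lower in LYVE1+CX3CR1+ macrophages (−8.88 ± 1.66, adjusted p = 0.00554), a fitted value that rests on the 0 to 20 counts given above, and in both interactions with this subset (−7.92 ± 1.80 and −8.52 ± 1.95, adjusted p = 0.0462 and 0.0472). Tnf, Il1b, Il1rn, Il18 and Osm did not pass for IC in any subset with these variables either. The share of all genes called with these variables is not given here. Over the alternatives besides leaving out 1 library, calls over all genes ranged from 46 to 1558 in LYVE1+CX3CR1+ macrophages (147 as reported). They ranged from 71 to 295 in MHCII+CD11c- macrophages (107). In the interactions of LYVE1+CX3CR1+ they ranged from 0 to 172 with MHCII+CD11c- (4) and 5 to 155 with MHCII+CD11c+ (5).

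Il18, the gene of an inflammasome-processed cytokine, did not pass in any comparison. Controls measured 8.37 to 19.7 CPM in LYVE1+CX3CR1+ macrophages, 8.32 to 20.4 CPM in MHCII+CD11c- and 4.92 to 25.7 CPM in MHCII+CD11c+ ones, and 9.13 to 13.8, 10.7 to 19.8 and 10.8 to 14.7 CPM after IC. Fold changes for IC were −0.17 ± 0.53, 0.09 ± 0.52 and −0.45 ± 0.59. Libraries overlapped in each of these IC and subset comparisons.

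Within a library, the ratio of an antagonist to its agonist does not depend on scaling. Il1rn to Il1b (log2 of counts, 0.5 added to each) was −1.18, −1.92 and −0.58 in MHCII+CD11c- controls and 0.79, 0.22 and 0.87 after IC. Reads of the antagonist thus outnumbered those of the agonist in each of these 3 IC libraries and in none of the controls. This holds for reads, not for levels per transcript length. In TPM the same IC libraries measured 105, 163 and 138 for Il1rn against 110, 255 and 138 for Il1b. The same IC libraries held less of the neutrophil markers than the controls (100 to 165 against 221 to 613 CPM, summed) and of the dendritic cell markers (65.2 to 83.6 against 91.4 to 225 CPM). The MHCII-side markers were lower too (12169 to 13826 against 18225 to 19943 CPM). The LYVE1-side markers summed to 1949 to 3522 CPM after IC against 1063 to 2063 CPM in controls, with overlap. The part of these marker shifts in the ratio was not tested. In LYVE1+CX3CR1+ macrophages the ratio was 0.31, −0.84 and 0.93 in controls and −0.57, −0.33 and −0.55 after IC, and in MHCII+CD11c+ macrophages −1.45, −2.37 and −1.14 against −1.12 and −1.34. The mean difference over subsets was 0.55 (exact permutation test within subsets, two-sided, p = 0.161, adjusted p = 0.484 over 3 ratios), with 5 of 8 IC libraries above their control mean. By subset, in the order LYVE1+CX3CR1+, MHCII+CD11c-, MHCII+CD11c+, it was −0.62, 1.85 and 0.42, and without the control libraries numbered 2 the mean was 0.15.

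The ratio of Il10 to Tnf split by subset as Il10 did. In LYVE1+CX3CR1+ macrophages it was −3.87, −4.09 and −5.89 after IC, under the controls of −3.37, −3.24 and −3.64. In MHCII+CD11c+ macrophages it was −2.36 and −1.84, over the controls of −2.62, −4.63 and −3.30. Over subsets the mean difference was 0.28 (exact permutation test, p = 0.578, adjusted p = 0.856). For Il18bp to Il18 the mean difference was −0.13 (exact permutation test, p = 0.856, adjusted p = 0.856), with −1.63, 0.77 and 0.46 by subset. The low LYVE1+CX3CR1+ value came from the third IC library, with 0 counts of Il18bp and 22 of Il18.

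**Figure D4:**
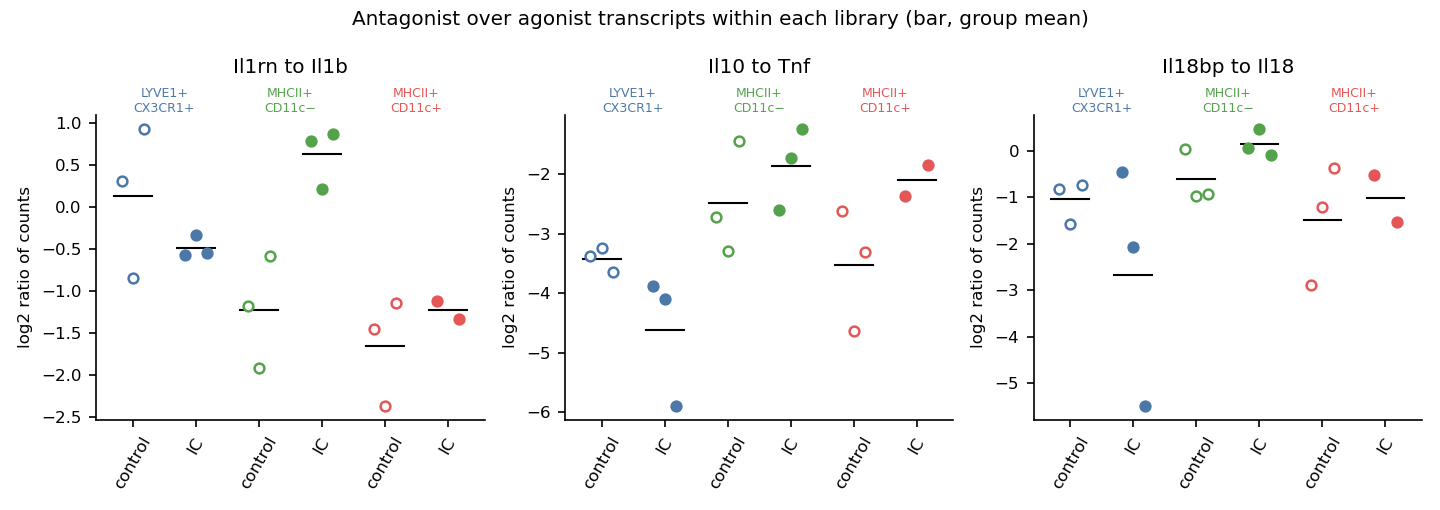
Log2 ratio of counts of Il1rn to Il1b, Il10 to Tnf and Il18bp to Il18 in each library, by subset and treatment, with open points for control, filled points for IC and a bar at the group mean. In MHCII+CD11c- macrophages the Il1rn to Il1b ratio lies between −1.92 and −0.58 in controls and between 0.22 and 0.87 after IC.

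Of the 14 receptor and decoy genes of these cytokines, 5 passed between the outer subsets of controls, of which 4 were lower in LYVE1+CX3CR1+ and 1 higher, where 15.2% of all genes passed. The lower ones were IL-1 and IL-18 receptors: Il1r1, the signalling IL-1 receptor, Il1r2, its decoy, and Il18r1 and Il18rap, which form the IL-18 receptor. From LYVE1+CX3CR1+ through MHCII+CD11c- to MHCII+CD11c+ controls, Il1r2 measured 0.774 ± 0.209, 6.06 ± 1.44 and 20.6 ± 2.28 CPM (−4.65 ± 0.59 between the outer subsets, adjusted p = 7.53e-06). Il18rap measured 0.137 ± 0.135, 4.19 ± 1.33 and 21.5 ± 6.31 CPM (adjusted p = 2.71e-06 between the outer subsets, with no fold given because LYVE1+CX3CR1+ controls held 0 to 1 counts), and Il1r1 0.489 ± 0.436, 3.70 ± 2.05 and 25.4 ± 9.11 CPM (−5.48 ± 0.92, adjusted p = 1.77e-04). In LYVE1+CX3CR1+ controls these 3 genes held 0 to 6 counts per library, and after IC they and Il18r1 were listed at 0 in all 3 libraries, which were shallower than the controls. Il1b, Il1rn, Il1r1 and Il1r2 thus all had their lowest control means in this subset.

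Receptors for TNF, IL-6 and IL-10 were abundant in all subsets. Tnfrsf1a and Tnfrsf1b, the TNF receptors, measured 121 to 231 CPM and 147 to 301 CPM in controls. Il6ra and Il6st, which form the IL-6 receptor, measured 153 to 344 CPM and 156 to 303 CPM. Il10ra ranged from 218 to 388 CPM, and Il10rb was 0.96 ± 0.26 log2 units higher in controls of the LYVE1+CX3CR1+ subset than of MHCII+CD11c+ (adjusted p = 0.0104). Osmr, the specific chain of the oncostatin M receptor, held at most 1.26 CPM in controls, whereas Lifr, which pairs with Il6st, reached 558 ± 224 CPM in MHCII+CD11c- controls and was lower in MHCII+CD11c+ (−1.66 ± 0.29, adjusted p = 8.47e-04). None of the 14 genes passed for IC in any subset.

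**Figure D5:**
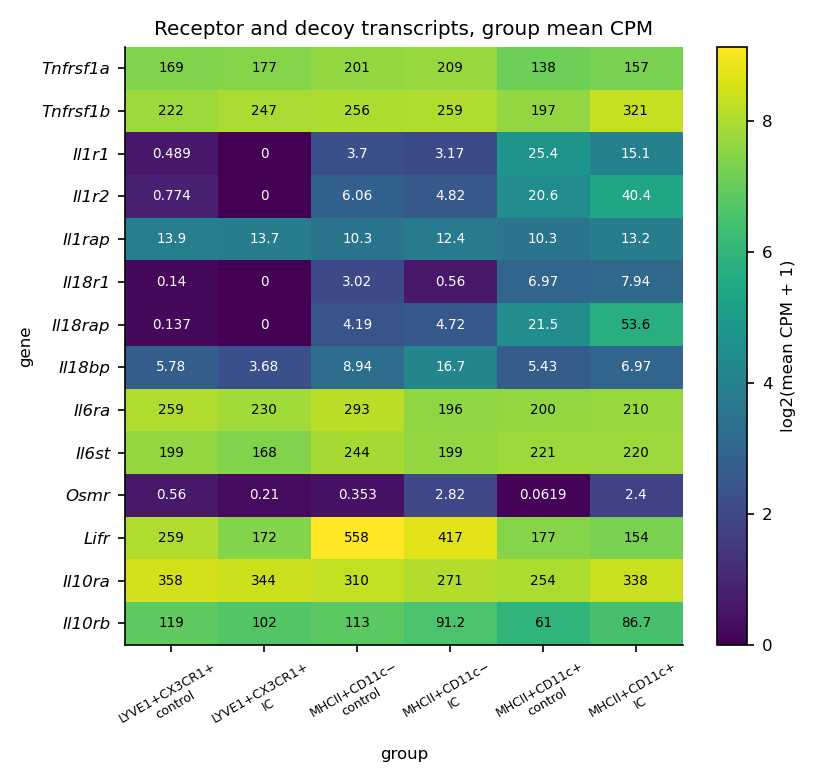
Group mean CPM of 14 receptor and decoy genes in the 6 groups, printed in each cell and coloured by log2(mean CPM + 1). Il1r1, Il1r2, Il18r1 and Il18rap are near 0 in LYVE1+CX3CR1+ and highest in MHCII+CD11c+ macrophages, while the receptors for TNF, IL-6 and IL-10 lie above 60 CPM in each group.

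Genes for processing and release of these cytokines gave 5 calls of 14 between the outer subsets of controls (15.2% of all genes), 2 higher and 3 lower in LYVE1+CX3CR1+. Mefv, which encodes the inflammasome sensor pyrin, was the largest difference, at 0.567 ± 0.476, 27.8 ± 9.63 and 106 ± 26.9 CPM in the 3 subsets (−7.35 ± 0.54, adjusted p = 1.45e-09). Ninj1, which ruptures the plasma membrane in lytic cell death, had the reverse order, at 386 ± 14.9, 354 ± 86.2 and 63.7 ± 19.4 CPM (2.59 ± 0.21, adjusted p = 8.51e-09). Casp1, which cleaves the IL-1β and IL-18 precursors and was picked after its values were seen, measured 16.3 to 53.7 CPM over all controls and did not pass. After IC, 1 of 14 passed in MHCII+CD11c+ macrophages (0.216% of all genes), Ninj1, and 0 in each of the other subsets.

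Among 17 genes of receptor signalling 0 were higher and 3 lower in LYVE1+CX3CR1+ when the outer subsets of controls were compared, a share near the 15.2% of all genes. They were the kinases Jak2 (−1.66 ± 0.22, adjusted p = 1.14e-05) and Tyk2 (−1.42 ± 0.21, adjusted p = 3.39e-05) and the adaptor Myd88 (−0.83 ± 0.26, adjusted p = 0.0308). For IC 0 of 17 passed in each subset and in the mean over subsets.

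Of 15 negative feedback genes, 4 were lower and 1 higher in LYVE1+CX3CR1+ in the same comparison (15.2% of all genes). Tnip3, which restrains NF-kappaB signalling, measured 1.67 to 8.92, 41.6 to 83.2 and 468 to 605 CPM in the 3 subsets (−7.16 ± 0.58, adjusted p = 1.22e-06), and Nfkbie, an inhibitor of NF-kappaB, differed by −2.06 ± 0.21 (adjusted p = 2.68e-07). After IC, 1 of 15 rose in each subset (0.963%, 0.701% and 0.216% of all genes), Tsc22d3, which encodes the glucocorticoid-induced leucine zipper. In the mean over subsets 3 of 15 rose (3.35% of all genes), Tsc22d3 (1.23 ± 0.12, adjusted p = 3.47e-06) and the phosphatase genes Dusp1 (0.42 ± 0.09, adjusted p = 0.00796) and Dusp2 (0.80 ± 0.21, adjusted p = 0.0358).

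Among the other cytokines 23 of 32 listed genes were in the table, and 17 were tested. None passed for IC in any subset. In LYVE1+CX3CR1+ against MHCII+CD11c+ controls Il16 was higher (1.64 ± 0.42, adjusted p = 0.00864), and Il12b, with 0 counts in each LYVE1+CX3CR1+ library, and Il7 were lower (adjusted p = 0.0132 and 0.0428).

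The genes whose log2 CPM followed each member most closely over the 17 libraries, by Pearson's r, are given as a description, since these libraries share 6 group means. For Il6 they were Adora2a (r = 0.97), Traf1 and Prkcd (both 0.95), and for Il1b Bcl2a1d, Tnip3 and Smim5 (all 0.96). Il1rn was closest to Gm9844 (0.98), Hnrnpa1 (0.96) and Ccnd2 (0.95). Lower values were reached by Tnf, with Tmbim1 (0.90), Vat1 and Nek6 (both 0.88), and by Il10, with Rbm38 (0.88), Nsun2 and Slfn1 (both 0.87). For Il1a they were Zbed5-ps (0.87), Ripk2 (0.86) and Ttc9 (0.85), for Osm Tpi1, Map6 (both 0.84) and Gm12070 (0.83), and for Il18 Stard3nl (0.82), Polr3k (0.79) and Ranbp3 (0.74).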

How the data were processed

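Counts per gene were analysed for 17 libraries of sorted synovial macrophages. The authors deposited raw counts, made from RNA of 5 ng input with a stranded total RNA kit; the submitters' processing notes name Trim Galore, FastQC, HISAT2, featureCounts and the mm10 build, without versions or counting settings. Here genes were kept by filterByExpr (minimum count 10), scaled by TMM, and fitted with edgeR 4.0.16 (quasi-likelihood F test, robust) in 1 model with a mean for each of 6 groups, with Benjamini-Hochberg adjustment over 15272 genes and a threshold of 0.05. Standard errors were the log2 fold change over the square root of F. The procedure was tested on simulated data. Alternatives used DESeq2 1.42.0, limma 3.58.1 and sva 3.50.0, other scalings, filters, depth and libraries. The study gives several mice for each point of a transcriptome comparison of these subsets; whether that holds for these Fcgr2b-KO libraries is not given in the sources used here, so p-values measure the spread between libraries, which may be technical. Intervals and floors cover counting error only where counts are given. The members and gene lists were chosen with earlier results of these data known. Named genes were the members, the receptors, the ratio genes, up to 3 called genes of each list per comparison by p (Casp1 was added), and the 3 closest patterns per member. A column matching no sample (1, summing to 0) was not used.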

Additional observations from a re-analysis of the deposited data

Results flagged for a closer look

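Il10 was singled out because each IC library lay below each control in LYVE1+CX3CR1+ macrophages and above each control in MHCII+CD11c+ macrophages, a difference of the IC response of −2.17 log2 units. The interaction test of edgeR gave an unadjusted p of 0.00306 and an adjusted p of 0.301, so the difference did not pass. Over all genes the median of this interaction was −0.21, and the share of genes that separate in this way was not counted.

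The log2 ratio of Il10 to Tnf separated in the same way, with a difference between these subsets of −2.62. This difference was not tested.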

How the results depend on the processing

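For the outer subsets of controls the 3 called members kept their calls in all 19 alternatives. For LYVE1+CX3CR1+ against MHCII+CD11c- controls the count of 1 called member became 0 with no filter on low counts and at equal depth, 2 in a fit on only the groups compared and with surrogate variables, and 3 by DESeq2 and by voom, and was 0 to 1 when 1 library was left out. Between MHCII+ controls the count of 2 became 1 with no filter and with surrogate variables, and 1 to 2 without 1 library. For IC, surrogate variables gave 2 members in LYVE1+CX3CR1+ (Il1a and Il6), 2 in MHCII+CD11c- macrophages (Il1a and Il10), 3 in the mean over subsets (those 3) and 2 in each interaction with LYVE1+CX3CR1+ macrophages (Il6 and Il10). The mean over subsets gave 0 to 1 without 1 library, the 1 being Il6 without the second LYVE1+CX3CR1+ IC library. The share of all genes called under each of these settings is not given here. Over the alternatives besides leaving out 1 library, calls over all genes ranged from 435 to 1638 in the mean over subsets (511 as reported). For LYVE1+CX3CR1+ against MHCII+CD11c- controls they ranged from 217 to 977 (238 as reported). Leaving out the 3 control libraries numbered 2, chosen after seeing the data, gave 1 member in the mean IC response (Osm) and 2 for LYVE1+CX3CR1+ against MHCII+CD11c- controls (Il1b and Tnf, with Il6 at an adjusted p of 0.0659).

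Of 1687 member fold changes under alternatives, 1521 kept direction and side of the threshold and 122 changed sign, of which 0 were called before or after. The cause was not tested. Leaving out the 3 control libraries numbered 2 turned, for IC, Il18 (0.35) and Il1rn (0.16) in LYVE1+CX3CR1+, Il6 (0.07) in MHCII+CD11c-, Il1a (0.78) and Tnf (0.15) in MHCII+CD11c+ macrophages, and Il18 (0.06), Il1a (0.11) and Il1b (0.42) in the mean. Among controls it turned Il1a (2.32) against MHCII+CD11c- and Il1a (0.03) and Osm (0.65) against MHCII+CD11c+. In the interactions of LYVE1+CX3CR1+ it turned Il18 (0.23) and Il1a (−0.36) against MHCII+CD11c-, and Il1rn (0.00), Il6 (0.24) and Tnf (−0.10) against MHCII+CD11c+, and it turned the Il10 to Tnf ratio (−0.01). Voom turned Il18 (0.19), Il1rn (0.13) and Tnf (−0.00) for IC in LYVE1+CX3CR1+, Tnf (0.04) in MHCII+CD11c+, Il1b (0.10) in the mean, Il1a (0.96) and Osm (0.12) among controls, and Tnf (−0.04) in an interaction. Surrogate variables turned Il18 (0.06) and Tnf (−0.02) for IC in LYVE1+CX3CR1+, Osm (−0.11) in MHCII+CD11c+, Osm (−0.03) and Tnf (−0.01) in the mean, Il1a (0.25 and −0.71) and Tnf (−0.16) among controls, and Il6 (0.61) in the interaction of the MHCII+ subsets. Equal depth turned Il1b for IC in LYVE1+CX3CR1+ (−0.07) and MHCII+CD11c+ (−0.00), Tnf in the mean (−0.01), Il18 (0.04) and Il1a (−0.10) among controls and Il1b (−0.06) in an interaction. Il1b for IC in MHCII+CD11c+ macrophages, near 0 as reported, was −0.05 with RLE scaling and by DESeq2, −0.03 with no scaling beyond totals, −0.02 with a filter at 30 counts and −0.01 on only the groups compared. Tnf was −0.01 with a length offset in LYVE1+CX3CR1+ and 0.01 with no filter in MHCII+CD11c+ macrophages.

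Fits without 1 library turned further values. For IC in LYVE1+CX3CR1+ macrophages Il18 ranged from −0.37 to 0.27, Il1b from −0.33 to 1.21, Il1rn from −0.66 to 0.22, Osm from −0.40 to 0.04 and Tnf from −0.16 to 0.18. In MHCII+CD11c- macrophages Il18 ranged from −0.18 to 0.40, Il6 from −0.75 to 0.07 and Tnf from −0.05 to 0.56, and in MHCII+CD11c+ macrophages Il1a from −1.58 to 0.79, Il1b from −0.28 to 0.27, Osm from −0.16 to 0.88 and Tnf from −0.23 to 0.16. The mean of Il1b ranged from −0.43 to 0.09 and that of Tnf from −0.01 to 0.19. For LYVE1+CX3CR1+ against MHCII+CD11c- controls Il18 ranged from −0.63 to 0.10, Il1a from −1.51 to 3.11 and Osm from −0.00 to 1.01. Against MHCII+CD11c+ controls Il1a ranged from −1.81 to 0.88 and Osm from −0.39 to 0.64. Between MHCII+ controls Il18 ranged from −0.12 to 0.69, Il1a from −1.60 to 4.13, Osm from −0.35 to 1.08 and Tnf from −0.12 to 0.47. In the LYVE1+CX3CR1+ interaction with MHCII+CD11c- Il18 ranged from −0.53 to 0.18, Il1a from −1.20 to 4.19 and Tnf from −0.55 to 0.12. With MHCII+CD11c+ the ranges were −0.11 to 0.72 for Il18, −2.05 to 0.65 for Il1a, −0.34 to 1.17 for Il1b, −5.85 to 0.34 for Il6 and −0.15 to 0.27 for Tnf. In the interaction of the MHCII+ subsets they were −1.04 to 4.68 for Il1a, −0.88 to 0.55 for Osm and −0.57 to 0.04 for Tnf. The Il1rn to Il1b ratio lay between 0.39 and 0.68, Il10 to Tnf between 0.09 and 0.49, and Il18bp to Il18 between −0.50 and 0.34, with sign changes at 0.05, 0.04 and 0.34.

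Libraries of the same number had deviations correlated at r of −0.15 to 0.29, and no pair of groups was above 0.1 throughout. The numbers were not used to pair the libraries in the main fit, which treats them as independent. All same-number control pairs were positive, and between MHCII+CD11c+ and MHCII+CD11c- controls each of 6 libraries correlated best with its own number (0.08 to 0.29). This was so for 5 of 6 between MHCII+CD11c+ and LYVE1+CX3CR1+ controls and between MHCII+CD11c- and LYVE1+CX3CR1+ IC libraries. Between MHCII+CD11c- and LYVE1+CX3CR1+ controls it was 3 of 6, and 0 to 3 of 6 between control and IC groups. These are hints of matched libraries from the data and not from the labels. With the replicate block the count for LYVE1+CX3CR1+ against MHCII+CD11c- controls was 2, also with the block within treatment. The block turned Tnf (−0.01) for IC in LYVE1+CX3CR1+, Il1b (−0.24) in MHCII+CD11c+ macrophages, Il1a (0.53, and 0.82 within treatment) and Osm (0.08, and 0.22 within treatment) among controls, and the Il18bp to Il18 ratio (0.05). RLE scaling moved the median of all genes from −0.16 to −0.03 and from −0.21 to −0.04 in both interactions with LYVE1+CX3CR1+ macrophages. Under IC the count over all genes, with leaving out 1 library included, ranged from 43 to 1558 in LYVE1+CX3CR1+ (147 as reported), 29 to 295 in MHCII+CD11c- (107) and 0 to 145 in MHCII+CD11c+ macrophages (33). Il6 and Il1a held 0 to 30 counts per LYVE1+CX3CR1+ IC library.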
